A study of Mus musculus with 6 samples.

Results

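The caseins and whey proteins are the major secreted proteins of mouse milk, and 8 of their genes were followed here in lung metastases of Myc-driven mammary tumours. The genes were Csn1s1, Csn2, Csn1s2a, Csn1s2b, Csn3, Wap, Lalba and Glycam1, taken by name, out of 12393 genes named by the array's annotation. They were measured by 13 probe sets annotated with 1 member symbol alone, out of 22626 probe sets that were not controls. The probe set with the highest mean over the 6 arrays stood for each gene, and the other probe sets of Csn2, Csn3 and Csn1s2a were read beside it.

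The study measured RNA from 6 flash-frozen lung metastases of FVB mice, each on 1 Affymetrix array. All 6 came from tumours of the MMTV-Myc transgene, in which a mouse mammary tumour virus promoter, active mainly in mammary epithelium, drives the Myc oncogene. The labels put 3 metastases in the genotype Myc E2F2 KO, from mice without E2F2 (KO), and 3 in the genotype Myc E2F3 Het, from mice heterozygous for E2F3 (Het). The tissue was taken at endpoint, no age is stated in the labels, and metastases of Myc mice with wild-type E2F were not analysed here. A number before the letters LM is the same in the 3 Het titles and differs among the 3 KO titles. The Het metastases may therefore come from 1 mouse, and genotype cannot be told apart from the mouse in that group. Replicates are numbered in the order of deposition, so Het replicates 1, 2 and 3 carry LM2, LM1 and LM3 in their titles.

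In lactating mammary epithelium, prolactin acts through the kinase Jak2 and the transcription factor Stat5 to switch on milk protein genes. The calcium-binding caseins, products of Csn1s1, Csn2, Csn1s2a and Csn1s2b, are phosphorylated in the Golgi and assemble with calcium phosphate into micelles, and kappa-casein, the product of Csn3, forms the outer layer that keeps the micelles apart. Whey acidic protein (Wap) and alpha-lactalbumin (Lalba) stay in solution, and the latter turns a galactosyltransferase into lactose synthase. Glycam1 encodes a mucin-like glycoprotein of milk that is also made by the high endothelial venules of lymph nodes. In pregnancy, beta-casein (Csn2) is among the genes that come on early, and Wap and Lalba come on later.

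The 5 casein genes lie in 1 cluster on mouse chromosome 5, Wap lies on chromosome 11, and Lalba and Glycam1 lie on chromosome 15. The promoters are shown because milk protein genes are the textbook targets of Stat5, which binds the GAS motif TTCNNNGAA. RefSeq promoter sequences (build GRCm38.p6, 250 bases before to 50 bases after the start) were matched for 6 of the 8 genes, all but Csn1s2b and Csn3. The motif, whose letters read the same on both strands, was found in 4 of these 6, those of Csn1s1, Csn2, Csn1s2a and Glycam1, and in 8.30% of all 32851 promoters of that length. The 250 bases upstream of the start are printed 5′ to 3′ for the first, second and last of these, with the motif in capitals, from chr5:87665958-87666207 on the plus strand, chr5:87699426-87699675 on the minus strand and chr15:103565082-103565331 on the minus strand. For Csn1s2a, whose motif lay just past the start, 29 bases around it are printed, from chr5:87774460-87774488 on the plus strand.
Csn1s1: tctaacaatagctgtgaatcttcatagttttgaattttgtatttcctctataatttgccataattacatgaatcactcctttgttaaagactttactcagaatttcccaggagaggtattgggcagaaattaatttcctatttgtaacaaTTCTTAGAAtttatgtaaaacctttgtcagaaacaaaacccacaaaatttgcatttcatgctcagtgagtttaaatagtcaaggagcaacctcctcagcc
Csn2: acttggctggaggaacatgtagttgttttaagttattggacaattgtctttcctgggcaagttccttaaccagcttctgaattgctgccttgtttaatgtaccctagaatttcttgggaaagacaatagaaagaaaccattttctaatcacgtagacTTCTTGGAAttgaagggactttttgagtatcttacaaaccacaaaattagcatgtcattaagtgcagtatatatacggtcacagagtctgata
Csn1s2a: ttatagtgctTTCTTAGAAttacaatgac
Glycam1: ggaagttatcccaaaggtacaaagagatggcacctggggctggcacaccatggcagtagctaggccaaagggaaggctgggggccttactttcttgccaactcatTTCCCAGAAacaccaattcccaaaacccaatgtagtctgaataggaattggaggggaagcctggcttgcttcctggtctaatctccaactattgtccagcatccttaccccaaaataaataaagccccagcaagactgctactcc
The motif began 100 bases before the start in Csn1s1, 93 before it in Csn2 and 145 before it in Glycam1, and at base 21 after it in Csn1s2a. The Csn1s1 and Csn1s2a matches had the same letters, TTCTTAGAA. The promoters of Wap and Lalba held no such letters in this window. Of the other motifs searched on both strands, the glucocorticoid receptor core motif AGAACA was found in 1 of the 6, that of Csn1s2a, and in 19.0% of all promoters. The C/EBP motif TTGCNNAA, the TATA box TATAAA and the E box CACGTG were found in 0 of the 6, and in 10.8%, 13.6% and 7.15% of all promoters. A match describes letters and does not show binding.

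The authors had scaled the arrays to 1 trimmed mean, and the array medians lay between 136.9 and 164.0. Ratios of 3′ to 5′ signal set Het replicate 1 apart, at 2.38 for actin against 1.48 to 1.73 on the other arrays, and at 11.8 for the transferrin receptor against 3.25 to 5.15. Leaving it out kept the sign of each of the 8 milk protein differences, and the values it moved by over 1.5 times are given below with those of the other arrays. The luminal keratin Krt8 was bright in all metastases, at 9660 to 12113, and so was the alveolar type 2 marker Sftpc, at 5981 to 18596, so each sample held epithelial and lung RNA. In bulk RNA, fewer cells of a type and less RNA per cell cannot be told apart.

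The milk protein genes did not separate the genotypes as groups. They differed most among the 3 KO metastases, and by different genes in each. KO replicate 3 was highest of the 6 for Csn1s2a, Csn1s2b and Glycam1. KO replicate 2 was highest for Lalba and Csn3, and lowest for Csn1s1, Csn2, Csn1s2a and Glycam1. KO replicate 1 was lowest for Csn1s2b, Csn3, Wap and Lalba. No Het metastasis was lowest for any of the 8 genes.

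**Figure D1:**
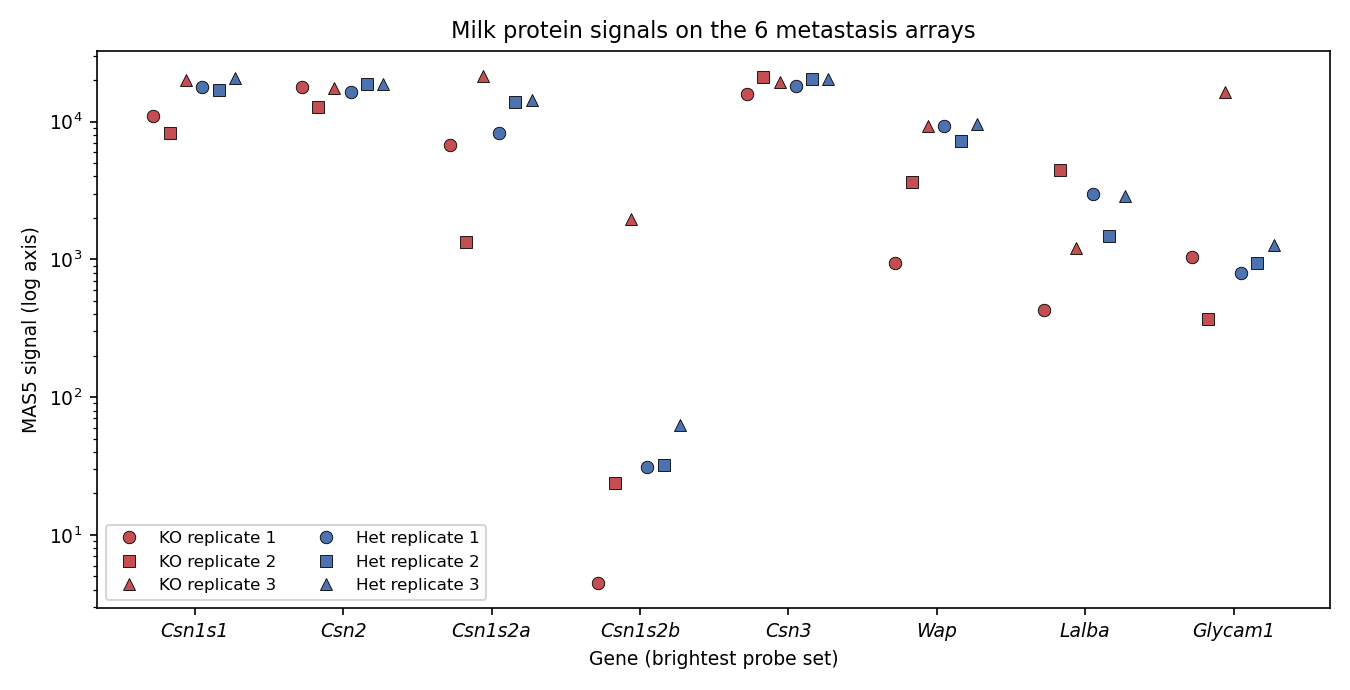
MAS5 signal (log axis) of the 8 milk protein genes, brightest probe set, with 1 point per array and the 3 KO (red) and 3 Het (blue) metastases side by side. Csn3 runs from 15725 to 21105, whereas Csn1s2b is at 1960 on KO replicate 3 and at most 62.3 on the other arrays.

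Csn1s1, which encodes an alpha-S1 casein, had signals of 10898, 8255 and 20132 in KO replicates 1, 2 and 3, and of 17673, 16909 and 20617 in Het replicates 1, 2 and 3. KO replicates 1 and 2 lay below all Het metastases, and KO replicate 3 lay among them. The log2 difference of KO minus Het, on the log2(signal + 16) scale used throughout, was -0.59 (SE 0.47; limma adjusted p = 0.9999). Leaving out KO replicate 2 brought it to -0.31, and leaving out KO replicate 3 to -0.95. Csn2, which encodes beta-casein, had signals of 17785, 12671 and 17414 in KO and of 16480, 18632 and 18776 in Het replicates 1, 2 and 3. Only KO replicate 2 lay outside the Het range among the KO metastases, and the difference was -0.18 (SE 0.22; limma adjusted p = 0.9999), or -0.027 with that metastasis left out. The second probe set of Csn2, 1420370_s_at, was also lowest in KO replicate 2, at 8900 against 14148 to 16941 on the other arrays.

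Csn1s2a encodes an alpha-S2-like casein. Its signals were 6745, 1326 and 21383 in KO replicates 1, 2 and 3, and 8257, 13891 and 14223 in Het replicates 1, 2 and 3. The KO metastases spanned 16.1-fold and lay on both sides of the Het range, in which the span was 1.72-fold. The difference was -1.03 (SE 1.41; limma adjusted p = 0.9999). Leaving out KO replicate 2 brought it to 0.03, and leaving out KO replicate 3 to -1.97. The gene's other 3 probe sets kept KO replicate 3 highest, KO replicate 2 lowest and KO replicate 1 next to lowest. Across the 6 arrays, 1420633_a_at spanned 20.4-fold, 1438694_at 210.1-fold and 1455579_at 102.3-fold. The last pair reached down to 27.5 and 37.0 in KO replicate 2, where a signal may be close to background, since detection calls were not used here.

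Csn1s2b encodes a second alpha-S2-like casein, and its gene lies next to Csn1s2a in the cluster. Its single probe set was dim on 5 arrays, with signals of 4.52 and 23.7 in KO replicates 1 and 2 and of 31.2, 31.9 and 62.3 in Het replicates 1, 2 and 3. In KO replicate 3 it was at 1960, which is 31.4-fold above the next highest array. The filter on dim probe sets left it out of the main fit. In the fit of all 22626 probe sets the difference was 1.06 (SE 2.58; limma adjusted p = 0.9999), and it was -0.98 without KO replicate 3, so that 1 metastasis set its direction.

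Csn3 was the most even of the 8 genes by its bright probe set, 1419735_at. Its signals were 15725, 21105 and 19409 in KO replicates 1, 2 and 3, and 18060, 20343 and 20212 in Het replicates 1, 2 and 3. The groups overlapped, and the difference was -0.07 (SE 0.19; limma adjusted p = 0.9999), or 0.05 without KO replicate 1 and -0.12 without Het replicate 1. These signals reached 70.8% to 87.3% of the brightest probe set on the same array. The second probe set of Csn3, 1451851_a_at, gave another picture, with 513, 1043 and 2130 in KO and 2697, 3322 and 3455 in Het replicates 1, 2 and 3. All KO metastases lay below all Het metastases on it, with a difference of -1.57 (SE 0.73; limma adjusted p = 0.9999). When every array counted as a sample, its limma adjusted p was 0.360 and its unadjusted p was 0.0076. It was the 1 probe set among the 12 of these genes kept by the filter whose groups did not overlap, and 8.91% of all 13575 probe sets tested had all KO below all Het arrays. The brightest probe sets of the other genes near the top of the scale were Csn2, at up to 80.1% of the array's brightest, Csn1s1, at up to 85.9%, and Csn1s2a, at up to 90.2%. Whether bright probe sets understate differences was not tested.

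**Figure D2:**
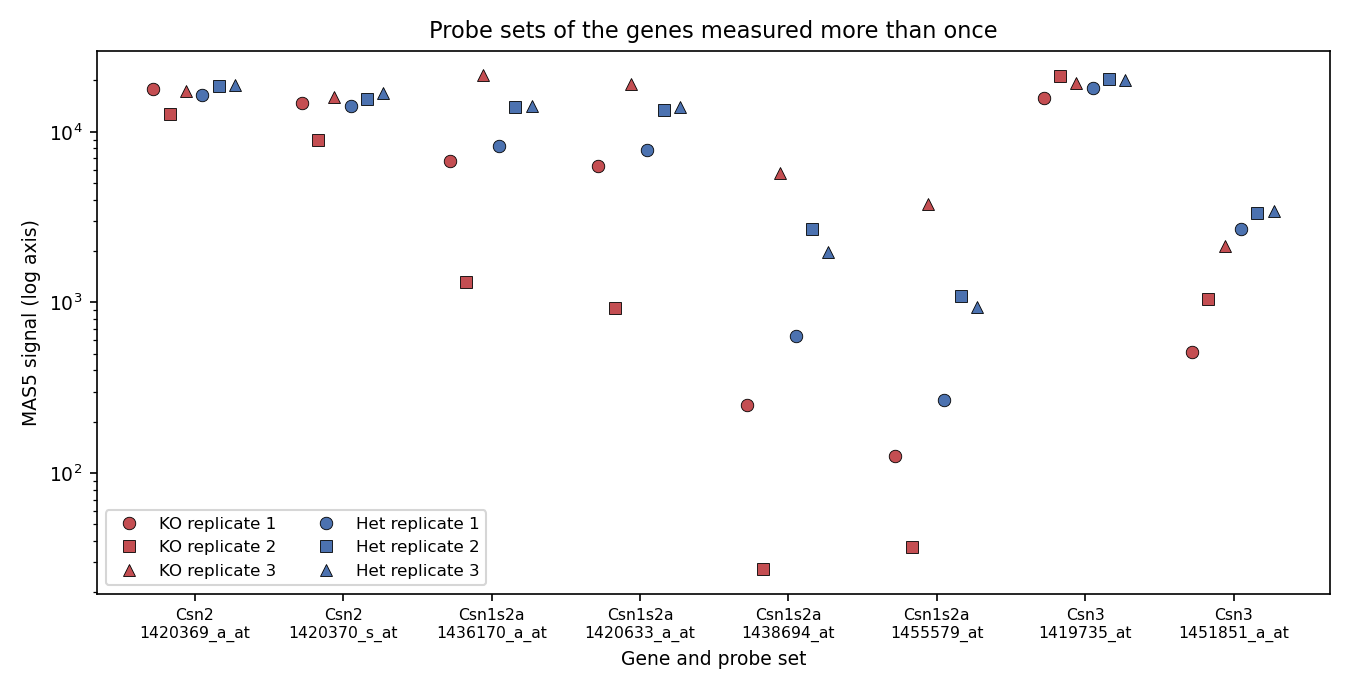
MAS5 signal (log axis) on the 6 arrays for each probe set of Csn2, Csn1s2a and Csn3, with KO metastases in red and Het metastases in blue. The probe sets of Csn1s2a share KO replicate 3 as highest and KO replicate 2 as lowest, whereas those of Csn3 differ, with spans over the 6 arrays of 1.34-fold and 6.74-fold.

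Wap had signals of 945, 3644 and 9295 in KO replicates 1, 2 and 3, and of 9346, 7217 and 9654 in Het replicates 1, 2 and 3. KO replicates 1 and 2 lay below every Het metastasis, and KO replicate 3 lay among them. The KO metastases spanned 9.84-fold and the Het metastases 1.34-fold. The difference of -1.44 (SE 1.16; limma adjusted p = 0.9999) was the largest in size among the 7 genes kept by the filter, and it was -0.57 without KO replicate 1. With each array as a sample the limma adjusted p was 0.520.

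Lalba showed another order, with 432, 4459 and 1207 in KO replicates 1, 2 and 3, and 2978, 1487 and 2891 in Het replicates 1, 2 and 3. KO replicate 2, low for most caseins, was highest for Lalba, 1.50-fold above the next array and 10.3-fold above KO replicate 1. KO replicate 3, highest for Csn1s2a and Glycam1, was below all Het metastases for Lalba. The difference was -0.81 (SE 1.18; limma adjusted p = 0.9999). Leaving out KO replicate 1 brought it to -0.01, and leaving out KO replicate 2 to -1.67.

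Glycam1 had signals of 1044, 368 and 16331 in KO replicates 1, 2 and 3, and of 792, 945 and 1275 in Het replicates 1, 2 and 3. KO replicate 3 stood 12.8-fold above the next highest array, KO replicate 1 lay within the Het range and KO replicate 2 below it. The difference of 0.91 (SE 1.96; limma adjusted p = 0.9999) turned to -0.65 without KO replicate 3. Glycam1 and Csn1s2b, on different chromosomes, thus shared the metastasis in which they were highest. Because Glycam1 is also a gene of high endothelial venules, markers of these vessels and of lymphocytes were read beside it. None of the 10 measured passed the filter, the range of their summed signal was 205.6 to 433.1 in KO and 274.3 to 323.0 in Het metastases, and the lowest of the 6 sums was that of KO replicate 3. In that metastasis Chst4, a sulfotransferase of high endothelial venules, was at 13.1 and the adhesion molecule gene Madcam1 at 14.8.

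Of the 7 genes kept by the filter, 0 passed the test between genotypes, as did 0 of all 13575 probe sets (0%). In this limma fit, which set 3 KO samples against the mean of the Het arrays, 0 of the 7 also had an unadjusted p under 0.05, against 2.22% of all probe sets. With each array as a sample the count over all probe sets was again 0 after adjustment (0%), with 10.3% at an unadjusted p under 0.05, and the limma adjusted p of the 7 genes ran from 0.520 to 0.861. The smallest p that an exact permutation test of 3 arrays against 3 allows is 0.1. Of the 7, 6 had a difference below 0, beside 52.4% of all probe sets, and their median difference was -0.59, beside -0.02 over all probe sets tested. Over all 8 genes with no filter, 6 were below 0. Leaving out KO replicate 2 moved the median of the 7 to -0.16, and leaving out KO replicate 3 moved it to -0.74. No gene of the 7 had groups that did not overlap, against 8.91% of probe sets with all KO below all Het and 7.82% with all KO above. Without KO replicate 3, the groups of Csn1s1, Csn1s2a and Wap did not overlap, with KO lower, in a setting where 18.8% of all probe sets lay that way. Without Het replicate 1, those of Csn2 did not overlap, where 14.0% did. Without KO replicate 2 this held for Lalba, beside 12.9%, and without Het replicate 2 for Wap, beside 15.5%, with KO lower in each.

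**Figure D3:**
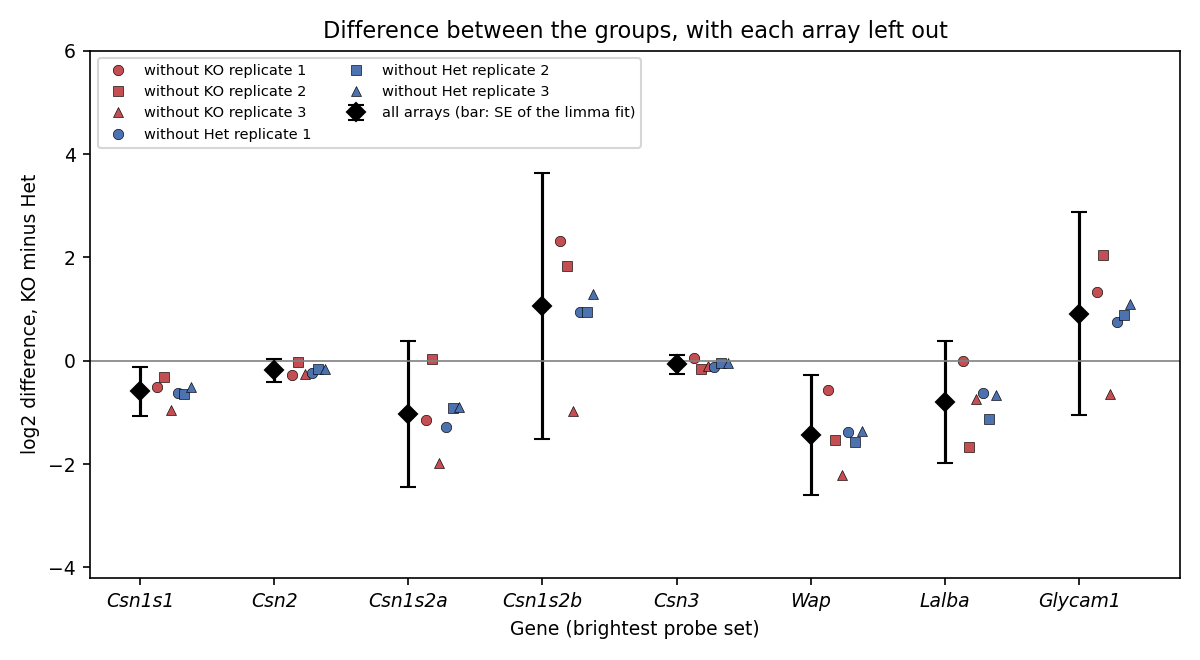
Log2 difference of KO minus Het for each gene (black diamond; the bar is the SE of the limma fit), with the value after leaving out each array in turn as coloured points. Csn1s2b and Glycam1 fall below 0 without KO replicate 3, at -0.98 and -0.65, and Wap stays below 0 in each case, from -2.21 to -0.57. Csn1s2b comes from the fit with no filter.

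For most of these genes the KO metastases lay far apart and the Het metastases close together. Among the KO metastases, 4 of the 7 kept genes spanned at least 4-fold on the log2(signal + 16) scale, a cut-off chosen with the values in view. These were Csn1s2a, Wap, Lalba and Glycam1, and 2.28% of all probe sets spanned as much in KO. Among the Het metastases the count was 0 of 7, beside 0.877% of all probe sets. These counts concern the brightest probe set of each gene. Among the Het metastases, 2 dimmer ones of Csn1s2a, 1438694_at and 1455579_at, spanned 4.23-fold and 4.07-fold in signal. On the log2(signal + 16) scale their Het ranges were 2.05 and 1.96 log2 units, so only 1438694_at reached the cut-off. The median range of the 7 genes was 3.28 log2 units in KO and 0.42 in Het, beside 0.43 and 0.35 over all probe sets. Each of the 7 had a wider range in KO than in Het, as did 59.5% of all probe sets, and so did Csn1s2b. The count of 4 was 2 without any 1 of the KO replicates, namely Csn1s2a and Glycam1 without replicate 1, Wap and Glycam1 without replicate 2, and Csn1s2a and Lalba without replicate 3. Of all probe sets, 0.781%, 1.72% and 0.700% spanned as much without KO replicates 1, 2 and 3 in turn. The difference in spread between the groups was not tested, and a smaller spread among metastases of 1 mouse cannot be told apart from one tied to genotype.

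Markers of other cells differed between the same metastases. The summed signal of 14 lung alveolar and airway markers was 82496, 42978 and 24601 in KO replicates 1, 2 and 3, and 49806, 35187 and 38447 in Het replicates 1, 2 and 3. Among the KO metastases the airway markers Scgb1a1, Cyp2f2 and Foxj1 were instead lowest in KO replicate 2, at 4054, 1656 and 24.0. The mean of the 8 milk protein genes relative to the mean of the 6 arrays was -0.97, -0.73 and 1.29 log2 units in the same KO replicates and 0.02, 0.01 and 0.37 in the Het replicates. KO replicate 1, with the most lung signal, thus had the lowest milk protein mean, and KO replicate 3, with the least, had the highest. The mean in KO replicate 3 drew most on Csn1s2b, at 4.61, and Glycam1, at 3.57. The median of the 8 genes there was 0.62, against 0.31 in Het replicate 3, the next highest. By other summaries of the 8 genes KO replicate 2 was lowest. Its median was -0.69 against -0.41 in KO replicate 1, and its summed signal 51852 against 53577. Among the Het metastases, replicate 2 had the least lung signal and, narrowly, the lowest milk protein mean. The 9 endothelial markers had sums of 3755, 2862 and 1403 in KO replicates 1, 2 and 3, the order of the lung marker sums. Their sums were 1609 to 2788 in Het, or 1609 to 1629 without Het replicate 1. The summed signal of the 16 luminal markers moved less, between 45261 and 54855 in KO and between 45564 and 53516 in Het metastases. Esr1 and Pgr were dim throughout, at no more than 39.0. Single markers, picked after their values were seen, moved more. Gata3 had 344, 418 and 408 in KO replicates 1, 2 and 3, below the Het range of 679 to 1045 (-1.06, SE 0.25). Foxa1 had 247, 141 and 208, above the Het range of 61.5 to 96.7 (1.08, SE 0.38). Kit had 1551, 720 and 368, beside a Het range of 509 to 599. Of the 14 luminal markers kept, 0 passed the test. Sums of the 10 basal markers ran from 3998 to 7391 in KO and from 3529 to 8196 in Het (3529 to 3764 without Het replicate 1), those of the 7 macrophage markers from 5923 to 10020 and from 9288 to 10716, those of 5 red cell and platelet markers from 741.5 to 1231 and from 379.4 to 847.5, and those of 3 adipocyte markers from 217.3 to 640.4 and from 188.4 to 528.7 (412.6 to 528.7 without Het replicate 1). Each array was also set relative to its mean luminal marker value, an alternative chosen after seeing the data. The differences of the 8 genes then all shifted by 1 shared amount, less than 0.02, so that Wap was at -1.46 and Glycam1 at 0.90. This step takes 1 number per array from every probe set, so it cannot show which genes follow the luminal cells. The part of lung, vessel or other cells in the milk protein values was not tested.

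**Figure D4:**
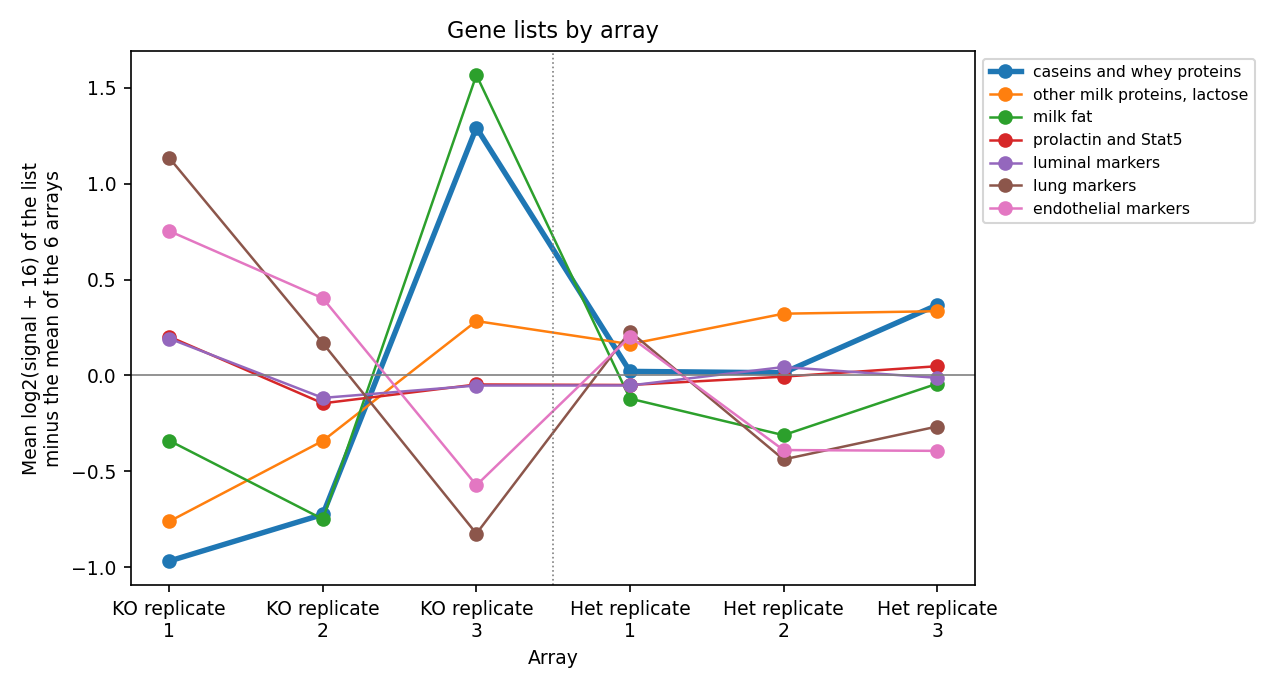
Mean log2(signal + 16) of each gene list on each array, relative to the mean of the 6 arrays, with KO metastases left of the dotted line. The 8 milk protein genes (thick blue) and the milk fat genes are highest on KO replicate 3, at 1.29 and 1.57, where the lung markers are lowest, at -0.83. The mean of 1.29 includes Csn1s2b at 4.61 and Glycam1 at 3.57.

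Genes that act with the milk proteins were read from lists set by function, with earlier results of these data known. Of 14 other soluble milk proteins and genes of lactose synthesis, 12 were measured and 11 were kept. Of the 11, 8 had a difference below 0, beside 52.4% of all probe sets, and 3 above 0. In either direction, 0 passed the test. The acute phase gene Saa3 had 133, 613 and 3482 in KO and 4018, 4928 and 4076 in Het replicates 1, 2 and 3, so all KO metastases lay below the Het range, as in 8.91% of all probe sets, with a difference of -2.65 (SE 1.61). It was -1.55 without KO replicate 1. Lactoferrin (Ltf), an iron-binding protein of milk, had 2765, 2182 and 8355 in KO and 7752 to 8605 in Het metastases. Ltf was low in KO replicates 1 and 2, as Wap and Csn1s1 were. Pigr, the receptor that carries antibodies into milk, had 191, 384 and 1132 in KO and 652 to 1224 in Het metastases. KO replicates 1 and 2 lay below the Het range for both genes. Slc35a2, which carries UDP-galactose into the Golgi, differed by -0.77 (SE 0.23; limma adjusted p = 0.9999), whereas its other 3 probe sets were at 0.03, 0.08 and -0.30.

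Of 7 genes of casein phosphorylation and mineral transport, 6 were measured and 5 kept. Of the 5, 2 were below 0, beside 52.4% of all probe sets, 3 were above, and 0 passed in either direction. Fam20c, the Golgi kinase that phosphorylates caseins, had 117, 231 and 632 in KO and 775, 742 and 817 in Het replicates 1, 2 and 3. All KO metastases lay below the Het metastases, as in 8.91% of all probe sets, and KO replicate 3 was nearest to them (difference -1.52, SE 0.84, or -0.99 without KO replicate 1). Atp2c2, a Golgi calcium pump, had 158, 343 and 450 in KO and 748, 559 and 872 in Het replicates, also without overlap (-1.25, SE 0.56). The phosphate carrier Slc34a2 had 7294, 2373 and 583 in KO replicates 1, 2 and 3, and it is also a gene of alveolar type 2 cells, whose markers Sftpb, Sftpa1 and Sftpd ran in the same order and whose marker Sftpc did not, at 18127, 18596 and 5981. Its difference of 0.71 (SE 1.28) turned to -0.16 without KO replicate 1, and leaving out KO replicate 3, Het replicate 1 or Het replicate 2 gave 1.64, 1.07 or 0.39. The calcium channel gene Orai1 differed by 0.25 (SE 0.24), or by 0.40 without Het replicate 1 and 0.07 without Het replicate 2, and its other probe set had the opposite sign, at -0.17.

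In the prolactin and Stat5 pathway, 15 of 16 genes were measured and 12 kept. Of these 12, 10 were below 0, beside 52.4% of all probe sets, 2 were above 0, and 0 passed the test in either direction. Among the 10, Id2, Akt1 and Cish were near 0, at -0.007, -0.045 and -0.099. Other probe sets had the opposite sign for Stat5b (0.22), Akt1 (0.45) and Id2 (0.27 and 0.46). Those of Jak2, Elf5, Socs3, Cebpb and Nfib kept the sign. Elf5, a transcription factor of milk-producing cells, had 3154, 5390 and 7346 in KO replicates 1, 2 and 3 and 7318, 8890 and 8647 in Het replicates 1, 2 and 3 (difference -0.72, SE 0.46, or -0.39 without KO replicate 1). Its lowest value was in KO replicate 1, as for Wap and Lalba. Socs2, a feedback inhibitor induced by Stat5, had 2055, 671 and 266 in KO and 185.7 to 300.4 in Het metastases, so it was highest where the milk protein mean was lowest. Its difference was 1.64 (SE 1.03), or 0.90 without KO replicate 1, and that of its other probe set 1.95. Nfib, which encodes a nuclear factor I protein, and Jak2 differed by -0.45 (SE 0.19) and -0.43 (SE 0.26). Nfib, Jak2 and Cebpb, 3 of the 12, had all KO below all Het metastases, beside 8.91% of all probe sets. Stat5a had 628 to 801 in KO metastases, against 768 to 1213 in the Het group, and its 2 probe sets disagreed in sign, at -0.35 and 0.27. Stat5a, and the genes named above for values near 0 or for their other probe sets, were chosen after their values were seen.

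Of the 9 milk fat genes, 7 were highest in KO replicate 3, a count made after the values were seen, beside 18% of all probe sets kept. The exceptions, Xdh and Thrsp, were highest in Het replicate 3. All 9 were measured and 8 kept. Of the 8, 5 were below 0, beside 52.4% of all probe sets, 3 were above 0, and 0 passed in either direction. Fabp3, which encodes a fatty acid-binding protein, had 6974 in KO replicate 3, against 118.5 to 188.5 on the other 5 arrays, a 37.0-fold step to the next. Olah, the thioesterase that releases medium-chain fatty acids of milk, was at 259 in KO replicate 3 and 9.73 to 30.6 elsewhere, and Btn1a1, a protein of the milk fat globule membrane, was at 2802 there and 249.4 to 1078 elsewhere. Olah and Btn1a1 were chosen after their values were seen. Cidea, a lipid droplet protein, was 2.73-fold above the next array in KO replicate 3. Leaving that array out brought the difference of Fabp3 from 1.86 to 0.09 and that of Cidea from 1.17 to 0.38. Cd36, a fatty acid receptor also made by endothelium and macrophages, was above the Het range in all KO metastases (1.58, SE 0.42; limma adjusted p = 0.9999), as were 7.82% of all probe sets. The dehydrogenase gene Xdh, needed for milk fat secretion, differed by -0.70 (SE 0.45), or by -0.46 without KO replicate 2.

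**Figure D5:**
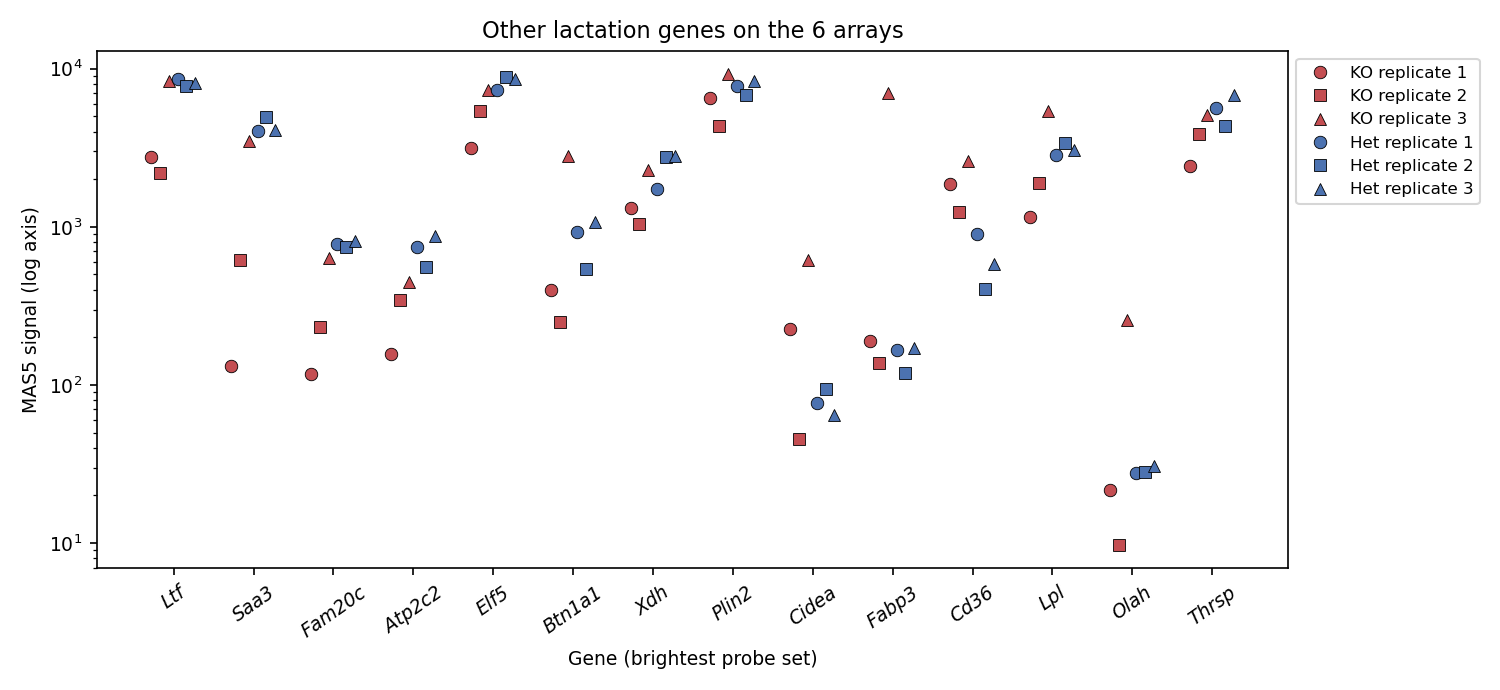
MAS5 signal (log axis) of selected genes of milk proteins, casein processing, prolactin response and milk fat on the 6 arrays, with KO metastases in red and Het metastases in blue. Fabp3, Olah and Btn1a1 stand highest on KO replicate 3, whereas Saa3, Fam20c and Atp2c2 have all KO points below all Het points.

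The high signals in the casein cluster were not shared by its measured neighbours. Among the 27 other genes within 10 places of the cluster or inside it, 7 were on the array under their own symbol, and 0 of them were kept by the filter. None of the 7 lay between the caseins. Sult1d1, a sulfotransferase gene on the Csn1s1 side, was highest in KO replicate 1, at 101.2, where Csn1s2b was lowest, and lowest in KO replicate 3, at 26.7, where Csn1s2b was highest. The gene Smr2 on the other side ran from 35.7 to 55.9, and the other 5, Ugt2b38, Sult1b1, Sult1e1, Smr3a and Prol1, were at 16.8 or below on every array.

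Across the 6 arrays, the genes most like the mean of the 8 milk protein genes were Mfhas1, Thap4, Ndufaf4, Ppp2r3c, Pnpla2, Pcx, Orm1, Gpt2, Acacb and Lpl, by Pearson r over 1671 genes whose range was at least 1 log2 unit. Their r ran from 0.983 for Mfhas1 to 0.948 for Lpl, and from 0.879 to 0.972 without KO replicate 3. These values describe 6 arrays, of which 3 may share a mouse, and the top of so many genes is high by selection. The milk protein mean on KO replicate 3 drew most on Csn1s2b and Glycam1. Lpl, the lipase that takes up lipid from blood, had 1147, 1905 and 5410 in KO replicates 1, 2 and 3 and 2850 to 3372 in Het metastases. Orm1, an acute phase glycoprotein gene, had 63.0, 116 and 1771 in KO and 537.2 to 631.3 in Het metastases. Both were low in KO replicates 1 and 2 and high in KO replicate 3. The genes most opposite to the mean were Smagp, Rasl11b, Prmt2, Limd2 and Igfbp7, with r from -0.993 to -0.976. Igfbp7, a gene of vessels and stroma, had 2870, 2147 and 966 in KO replicates 1, 2 and 3, an order shared with the endothelial markers.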

How the data were processed

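RNA of 6 lung metastases was measured on 1-colour Affymetrix arrays. The deposited values are intensities on a linear scale, made by the authors with MAS5 and Affymetrix Expression Console per the submitters' processing notes, which give no versions. Each array had a trimmed mean of 500.2, and the number of arrays limits the precision. Of 22690 probe sets, 64 were controls, 20380 had 1 symbol in the platform annotation, 691 several and 1555 none. Signals were transformed to log2(signal + 16), which understates changes of dim genes, and the dimmest 40% by mean log2 value were dropped with the controls, which kept 13575 probe sets. The 3 Het arrays, which share a title number, were averaged into 1 sample against 3 KO samples, which assumes that the lone sample varies as KO samples do. Tests used limma 3.58.1 in R 4.3.3 (lmFit, eBayes with trend, Benjamini-Hochberg, threshold 0.05). The code was tested on simulated data, drawn as 6 independent arrays with the spread of the KO arrays. Such data do not stand for Het arrays that may share 1 mouse. Nothing in the labels says that samples came from separate animals, so p-values measure only the spread between these samples, which may be technical. SE is that of the fit.

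The genes, lists and tests were chosen with earlier results of these data known. Named beside the 8 genes were up to 4 genes of each list with the largest difference, the 10 genes most like the 8 and the 5 most opposite, and the measured neighbours, with exceptions marked in the text and markers of other cells. Protein features planned for the 8 genes were not computed. Alternatives covered replication, pseudocount, scaling, filter and each array left out.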

Additional observations from a re-analysis of the deposited data

How the results depend on the processing

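Under each of 14 alternative settings, 0 probe sets passed the test. The median difference of the milk protein genes was -0.59 in the main setting. As each array was left out it ran from -0.74, without KO replicate 3, to -0.16, without KO replicate 2. Of 115 alternative values for single milk protein genes, 111 kept their sign, and 4 turned as an array was left out. The settings that changed only replication or filter give the same difference by construction. Their values could not turn, and they are counted here and among the list genes below. Csn3 reached 0.053 without KO replicate 1 and otherwise went down to -0.16. Csn1s2a reached 0.029 without KO replicate 2 and -1.97 without KO replicate 3. Without KO replicate 3, Csn1s2b and Glycam1 were at -0.98 and -0.65, against up to 2.32 without KO replicate 1 for Csn1s2b and up to 2.06 without KO replicate 2 for Glycam1. Of 223 values for 16 genes of the lists, 1 turned, Slc34a2, which ran from -0.16 without KO replicate 1 to 1.64 without KO replicate 3. These settings differ from the main one only by the array left out. No paired analysis was possible because the labels give no replicate numbers shared by the groups. Without detection calls, dim signals such as those of Csn1s2b have no known distance from background.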
